A study of Mus musculus with 5 samples.

Results

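The 10 genes described here (Bnip3l, Ulk1, Foxo3, Map1lc3b, Gabarapl2, Atg4a, Ube2o, Ube2h, Trim58 and Xpo7) act in the last steps of red cell maturation and in autophagy. They were chosen by symbol, and each matched 1 row of the 39179 genes in the deposited tables. Levels came from RNA sequencing of mouse erythroid cells taken with anti-CD71 magnetic beads, which bind the transferrin receptor. There were 2 libraries from the spleens of mice given B16 melanoma cells under the skin (tumor 1 and tumor 2). A further 2 (UVB 1 and UVB 2) came from spleens after topical irradiation of the mice with 50 mJ/cm2 of UVB light. The control was 1 library from the bone marrow of untreated mice. The labels give the strain as C57BL/6 for the control and both UVB libraries, C57BL/7 for tumor 1 and C57BL/8 for tumor 2, and give no age, no genetic modification and no time after treatment. Since the strain names differ only by a number that runs on from sample to sample, it is uncertain whether the strain differed at all. Whether the 2 libraries of a spleen group represent separate mice or pools is not stated, so the p-values below reflect the spread among these libraries alone, and that spread may be technical. No spleen library of untreated mice was analysed, so organ and treatment cannot be told apart in either comparison with the control.

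A red cell precursor loses its nucleus and then, as a reticulocyte, its mitochondria and ribosomes. Autophagy encloses mitochondria in a double membrane and delivers them to lysosomes, the ubiquitin system tags ribosomal and other proteins for destruction, and changes in nuclear transport and in the dynein motor go with condensation and expulsion of the nucleus. In mice, loss of Bnip3l or Ulk1 leaves mitochondria in circulating red cells, and Foxo3 is needed for normal maturation of erythroblasts.

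Of the 10 genes, 7 had a promoter window in the RefSeq table (build GRCm38.p6, the assembly of mm10), with 9 windows in all because Atg4a and Ube2h have a pair of starts each. The sequences below are those of Ube2h and Atg4a, the genes that were called between the spleens, and of Ulk1, which had the largest fold change there. Each runs 5′ to 3′ on the gene's strand, without the bases that fall inside the annotated gene, so the window of 250 bases before the RefSeq start is shown as 234 bases for Ulk1. Capitals mark matches on either strand to AGATAA or TGATAA, the core bound by GATA factors, or to CCACCC, a core bound by KLF factors.
Ube2h (chr6:30304540-30304789, minus strand): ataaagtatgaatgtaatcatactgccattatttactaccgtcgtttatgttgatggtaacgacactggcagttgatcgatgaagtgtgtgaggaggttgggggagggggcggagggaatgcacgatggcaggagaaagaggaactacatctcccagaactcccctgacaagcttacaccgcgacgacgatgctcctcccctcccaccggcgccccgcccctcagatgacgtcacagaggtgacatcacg
Atg4a (chrX:140956657-140956906, plus strand): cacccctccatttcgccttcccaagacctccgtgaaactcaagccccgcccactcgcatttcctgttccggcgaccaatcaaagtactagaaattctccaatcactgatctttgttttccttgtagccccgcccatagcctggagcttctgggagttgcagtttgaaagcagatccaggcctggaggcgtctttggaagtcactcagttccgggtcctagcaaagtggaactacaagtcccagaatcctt
Atg4a, upstream start (chrX:140953595-140953844, plus strand): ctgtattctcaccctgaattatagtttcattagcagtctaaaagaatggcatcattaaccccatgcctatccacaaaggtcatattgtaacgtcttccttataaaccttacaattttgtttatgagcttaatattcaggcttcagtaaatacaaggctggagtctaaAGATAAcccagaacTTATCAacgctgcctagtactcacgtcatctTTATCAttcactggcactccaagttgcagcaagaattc
Ulk1 (chr5:110810098-110810331, minus strand): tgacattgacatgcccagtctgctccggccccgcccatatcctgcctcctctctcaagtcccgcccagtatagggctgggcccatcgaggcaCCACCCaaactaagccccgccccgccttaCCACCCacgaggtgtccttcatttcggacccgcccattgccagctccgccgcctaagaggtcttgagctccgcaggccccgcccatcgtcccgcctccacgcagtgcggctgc

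The window of the upstream Atg4a start held 3 GATA matches, the other Atg4a window and that of Ube2h held none, and the Ulk1 window held 2 CCACCC matches. Over all 9 windows of these genes, 2 held a GATA match (Atg4a upstream and the inner start of Ube2h), against 16.6% of the 32851 mouse windows of 250 bases. CCACCC was found in 3 windows (Ulk1, Map1lc3b and the inner start of Ube2h), against 28.1% of all windows. GTAAACA, a core bound by FoxO factors, was in 1 window (Ube2h, inner start) and 3.17% of all, and CACGTG, the core bound by the lysosome regulator TFEB, was in 0 of the 9 and 6.02% of all. No searched motif contains another, both strands were read, and a match describes the sequence only.

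Each library held between 5003923 and 5921270 reads in genes, so 1 read was worth 0.168 to 0.198 CPM (counts per 1000000 reads in genes). The 20 erythroid markers summed to 7908 and 7003 CPM in tumor 1 and 2, 7988 and 7638 CPM in UVB 1 and 2 and 7067 CPM in the control, with none at 0 reads. Among them the globin gene Hbb-bs was at 66.7 and 72.0 CPM in tumor 1 and 2, 97.8 and 75.7 CPM in UVB 1 and 2 and 75.2 CPM in the control. Gata1 lay the other way between the spleens, at 214 and 173 CPM in the tumor and 164 and 169 CPM in the UVB libraries. Klf1, Tfrc and Gata1 of this list averaged 0.693, 0.663 and 0.405 reads per base of exon. The highest gene with 200 or more exon bases reached 0.955 to 1.14 per library. Whether a ceiling on reads per base narrowed the erythroid sums was not tested, so they are not taken as a measure of erythroid content. Markers of other cells were present too, and those of neutrophils and stroma stood apart in the control. The 13 neutrophil markers summed to 46.5 and 137 CPM in the tumor libraries, 63.8 and 89.4 CPM in the UVB libraries and 1103 CPM in the control. The 9 stromal markers summed to 6.39 and 8.50 CPM in the tumor libraries, 16.3 and 15.3 CPM in the UVB libraries and 752 CPM in the control. The 14 macrophage markers summed to 1483 and 2177 CPM in the tumor libraries, 4005 and 3511 CPM in the UVB libraries and 3081 CPM in the control. The 11 B cell markers summed to 674 and 1823 CPM in the tumor libraries, 2575 and 2424 CPM in the UVB libraries and 1314 CPM in the control, and no marker of either list was at 0 reads in any library. The 8 early progenitor markers summed to 221 and 338 CPM in the tumor libraries, 222 and 165 CPM in the UVB libraries and 463 CPM in the control, so the sums of the spleen groups overlapped. The part of these other cells in the results below was not tested, and in such bulk samples fewer cells of a type and less RNA per cell cannot be told apart.

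**Figure D1:**
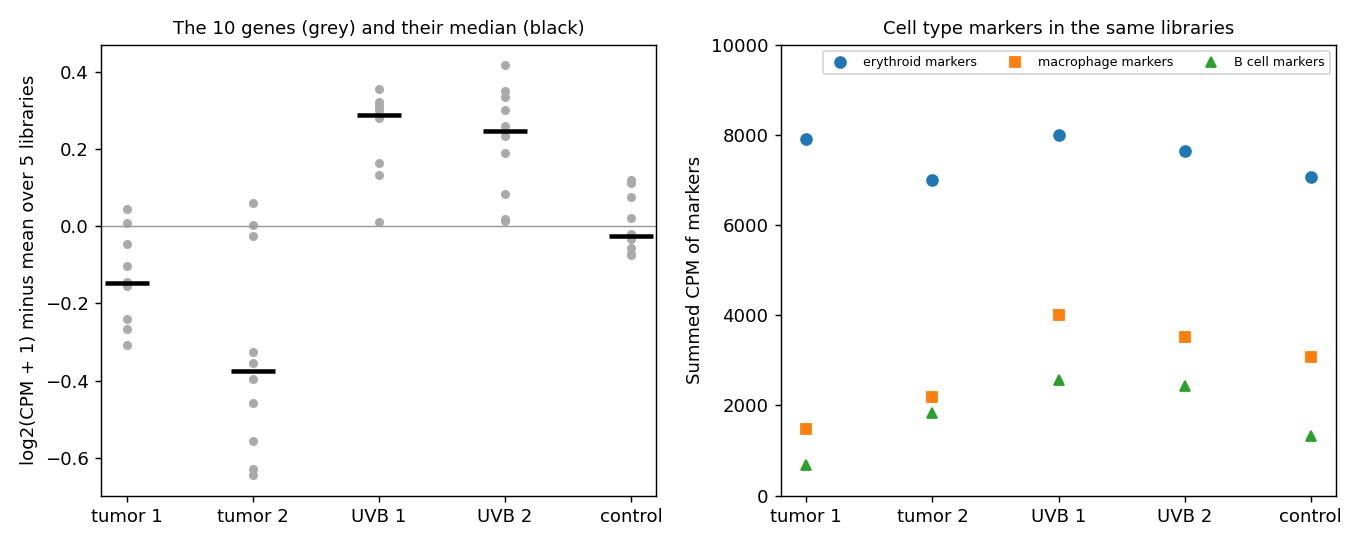
Left, log2(CPM + 1) of each of the 10 genes (grey points) after subtraction of its mean over the 5 libraries, with the median of the 10 genes (black bar). Right, summed CPM of the erythroid, macrophage and B cell markers in the same libraries. The gene median was lowest in tumor 2 and highest in UVB 1, while macrophage and B cell markers were lowest in tumor 1.

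Between the spleens, Ube2h, a ubiquitin-conjugating enzyme, and Atg4a, a protease that processes ATG8 proteins, were lower in tumor than in UVB libraries. The log2 fold change was -0.71 (SE 0.10, adjusted p = 0.0284) for Ube2h and -0.65 (SE 0.12, adjusted p = 0.0383) for Atg4a. The other 8 genes did not pass. Fold changes of all 10 genes were below 0, with a median of -0.56 against 0.01 over all 15006 genes tested. In 9 of the 10 genes, all but Ube2o, both tumor libraries lay below both UVB libraries, which was so for 34.8% of the genes tested. For Gabarapl2 and Bnip3l the groups all but met. The nearest tumor and UVB libraries were at 25.72 and 25.78 CPM for Gabarapl2 and 250.7 and 252.8 CPM for Bnip3l. Over all genes 17% were called in this comparison, 12.3% higher and 4.70% lower, beside 2 of the 10 genes, both lower. The edgeR test on reads also called 2 of the 10 (13.4% of all genes), and DESeq2 called 3 (16.8% of all genes), Ube2h, Ulk1 and Xpo7, with Atg4a at an adjusted p of 0.0563. Without UVB 1 or without UVB 2, limma called 0 of the 10 genes (1 and 2 at unadjusted p under 0.05) and 0 of all genes tested (2424 and 2681 at unadjusted p under 0.05). It called 7 of the 10 without tumor 1, when 38% of all genes were called, and 7 without tumor 2, when 52.6% were called.

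In UVB spleen against control bone marrow, no member passed. Of the 10 genes, 0 were called by limma, edgeR or DESeq2, 0 had an unadjusted p under 0.05 by limma, and adjusted p ran from 0.383 for Atg4a to 0.80 for Gabarapl2. Of the 15006 genes tested, limma called 2.33%, edgeR 116 genes and DESeq2 441 genes. Both UVB libraries nevertheless lay above the control library for all 10 genes, as they did for 34.8% of the genes tested. The log2 fold changes ran from 0.12 (Gabarapl2) to 0.35 (Atg4a), with a median of 0.23 against -0.06 over all genes. This median was 0.30 after TMM scaling. The direction was not particular to the 10 genes. In the lists described below, 25 of 26 late erythroid, 18 of 19 lysosome and 2 of 15 karyopherin genes also had a fold change above 0. Over all genes tested 43.2% did so for UVB over control. Genes of terminal maturation were known from earlier work on these libraries to lie higher there, so the direction is not independent evidence.

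In tumor spleen against control bone marrow, 0 of the 10 genes were called by limma, edgeR or DESeq2, with 1 gene, Ube2h, at an unadjusted p under 0.05. Of the 15006 genes tested, limma called 3.79%, edgeR 192 genes and DESeq2 698 genes. Both tumor libraries lay below the control for 6 genes (Ulk1, Map1lc3b, Atg4a, Ube2h, Trim58 and Xpo7) and above it for 1, Gabarapl2, while the other 3 had a tumor library on each side. Both lay below the control for 37.9% of genes tested and above it for 39.3%. The median log2 fold change was -0.26 against -0.01 over all genes. Limma called 4 of the 10 (Ulk1, Map1lc3b, Ube2h and Trim58) without tumor 1 and 1 (Ube2h) without tumor 2, where 22.6% and 36.2% of all genes were called. All 3 comparisons share libraries, so their values are not independent of each other.

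**Figure D2:**
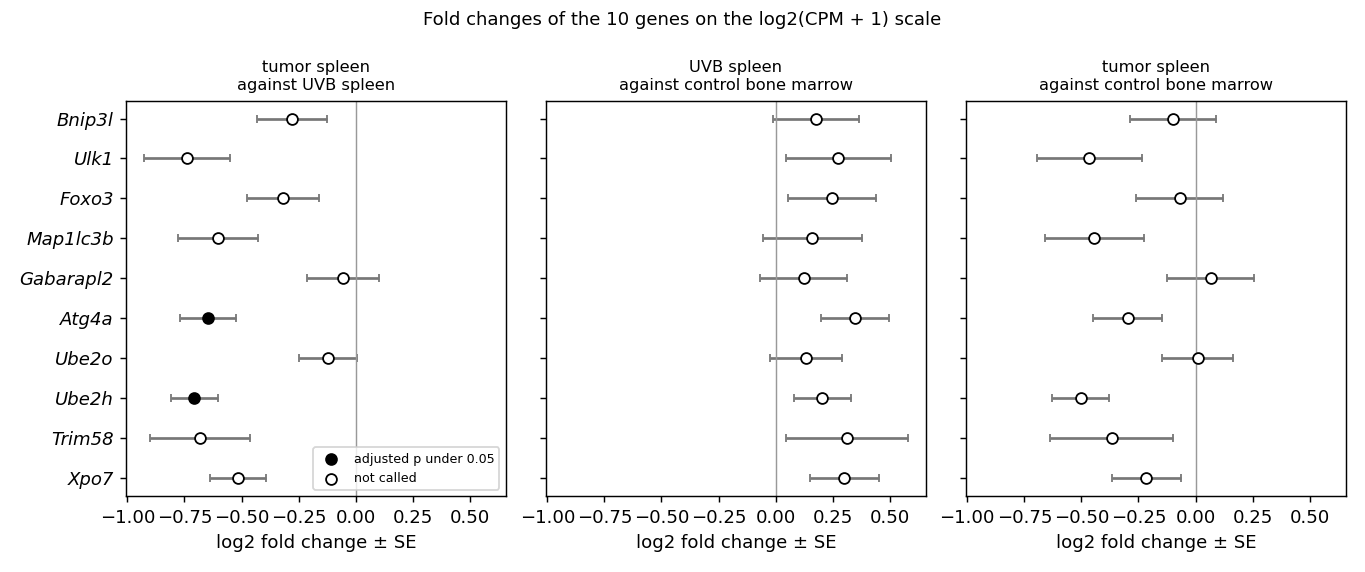
Log2 fold change of each gene in the 3 comparisons on the log2(CPM + 1) scale, with bars of 1 SE from the limma fit of all 5 libraries and filled points for adjusted p under 0.05. Values for tumor over UVB ran from -0.74 (Ulk1) to -0.06 (Gabarapl2), and values for UVB over control were all above 0.

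**Figure D3:**
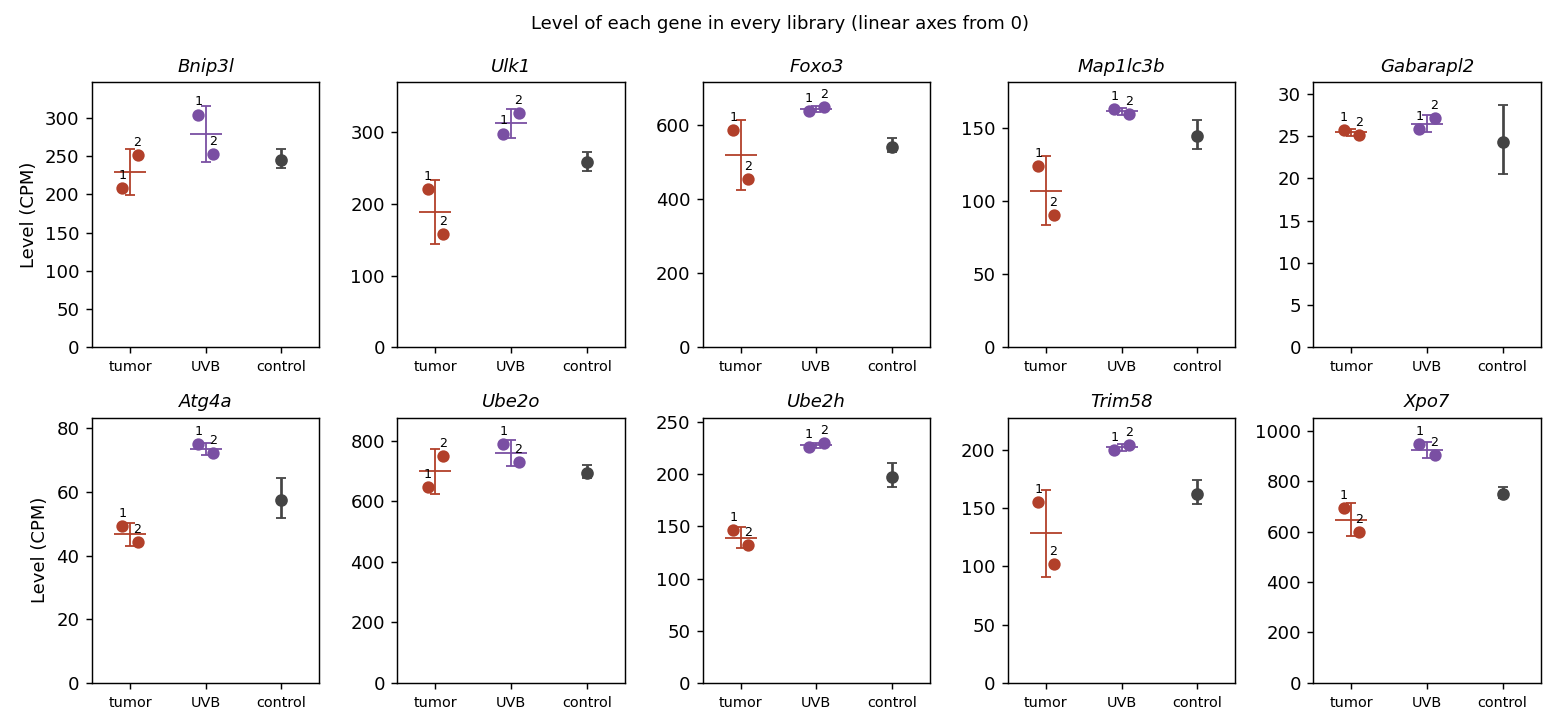
CPM of each gene in every library, with numbers for the replicate, mean and SD of the 2 libraries of each spleen group, and a 95% Wilson interval (counting error only) on the single control library. For Ube2h, Atg4a, Ulk1, Map1lc3b, Trim58 and Xpo7 the control lies between the spleen groups.

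Ulk1 (chromosome 5, 110784488 to 110810097, minus strand, GRCm38) encodes the kinase that starts formation of the autophagosome. It was at 219.8 and 157 CPM in tumor 1 and 2, 297 and 326 CPM in UVB 1 and 2 and 257 CPM in the control. The groups did not overlap, and tumor 2 was the lowest library. Its log2 fold change was the largest of the 10 for tumor over UVB, at -0.74 (SE 0.19, adjusted p = 0.0613), and it was -0.47 (SE 0.23, adjusted p = 0.295) for tumor over control. Its paralog Ulk2 fell in tumor relative to UVB libraries, to 63.6 ± 10.9 CPM in tumor libraries, against 147 ± 19.6 CPM in UVB libraries (SD, n = 2 each; log2 fold change -1.20, adjusted p = 0.0285).

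Bnip3l (chromosome 14, 66985239 to 67008877, minus strand), the mitophagy receptor also called NIX, was at 208 and 251 CPM in the tumor libraries, 304 and 253 CPM in the UVB libraries and 245 CPM in the control. UVB 1 stood above the rest, UVB 2 and tumor 2 were nearly equal, and the control lay between the tumor libraries. The log2 fold change was -0.28 (SE 0.15, adjusted p = 0.23) for tumor over UVB. The related receptor Bnip3 was hardly detected, at 1.26 ± 0.270 CPM in tumor and 2.59 ± 0.820 CPM in UVB libraries and 6.45 CPM in the control.

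The ATG8 proteins coat the growing membrane and hold the cargo receptors. Map1lc3b, an ATG8 gene of the LC3 branch (chromosome 8, 121590361 to 121598760, plus strand), was at 124 and 90.4 CPM in the tumor libraries, 163 and 159.9 CPM in the UVB libraries and 144 CPM in the control. The UVB libraries were close together and highest, and tumor 2 was lowest. For tumor over UVB the log2 fold change was -0.60 (SE 0.18, adjusted p = 0.0782). Of its exon bases 0.772% are shared with Zcchc14 on the other strand, and the strand setting of the counting is not given in the sources used here.

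Gabarapl2, an ATG8 gene of the GABARAP branch (chromosome 8, 111940703 to 111953612, plus strand), was nearly level. It was at 25.7 and 25.1 CPM in the tumor libraries, 25.8 and 27.2 CPM in the UVB libraries and 24.2 CPM in the control, whose 95% Wilson interval ran from 20.5 to 28.6 CPM and held the values of the other 4 libraries. These values rest on 129 to 161 reads a library. Gabarap was at 98.6 ± 1.31 CPM in tumor libraries, 101 ± 2.12 CPM in UVB libraries and 99.9 CPM in the control. Gabarapl1 was at 106 ± 4.63, 84.4 ± 8.54 and 84.6 CPM in tumor, UVB and control libraries, and its difference between the spleens did not pass (adjusted p = 0.114).

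Atg4a (chromosome X, 140956907 to 141164270, plus strand), whose promoter windows are printed above, cuts the end of ATG8 proteins so that they can be joined to lipid. Its level was 49.3 and 44.1 CPM in the tumor libraries, 75.0 and 72.1 CPM in the UVB libraries and 57.6 CPM in the control. The 3 groups did not overlap, and the UVB libraries were highest. It was called between the spleens, as given above, but not for UVB over control (log2 fold change 0.35, SE 0.15, adjusted p = 0.383). Atg4b, the other main protease of this kind, was at 167 ± 31.8 CPM in tumor libraries, 144 ± 15.0 CPM in UVB libraries and 151 CPM in the control, with no call.

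Among the ubiquitin enzymes, Ube2h (chromosome 6, 30211289 to 30304539, minus strand) is the conjugating enzyme that works with the CTLH ligase complex. It was at 147 and 132 CPM in the tumor libraries, 226 and 229.5 CPM in the UVB libraries and 197 CPM in the control. Both pairs were tight, and the control lay between them. Its fold change for tumor over control (-0.50, SE 0.12) had an adjusted p of 0.111. Of the ligase itself, Maea was at 124 ± 1.72, 101 ± 0.470 and 118 CPM in tumor, UVB and control libraries, Ranbp10 at 623 ± 60.6, 704 ± 21.9 and 627 CPM, and Wdr26 at 626 ± 15.8, 735 ± 17.8 and 648 CPM, none of them called. Rmnd5a, a RING subunit, fell in tumor (279 ± 6.60 CPM) relative to UVB libraries (381 ± 15.4 CPM). Its log2 fold change was -0.45 (limma adjusted p = 0.0461). That call was lost with edgeR (adjusted p = 0.0515) and with no filter on low values (0.0543).

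Ube2o (chromosome 11, 116537740 to 116581447, minus strand), a hybrid of conjugating enzyme and ligase that marks ribosomal proteins for removal in mouse reticulocytes, was at 646 and 750.6 CPM in the tumor libraries, 789 and 729 CPM in the UVB libraries and 692 CPM in the control. The tumor and UVB libraries overlapped, and no comparison passed (adjusted p = 0.496 to 0.978). Its reads averaged 0.759 per base of exon, against a maximum of 0.955 to 1.14 per library over all genes with 200 or more exon bases, while the other 9 genes averaged 0.0611 to 0.422. Whether a ceiling on reads per base narrowed the differences of Ube2o was not tested.

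Trim58 (chromosome 11, 58640465 to 58652404, plus strand) is a ubiquitin ligase that removes dynein before the nucleus is expelled in mouse erythroblasts. It was at 155 and 102 CPM in the tumor libraries, 200.1 and 204 CPM in the UVB libraries and 163 CPM in the control. Tumor 2 had 0.659 times the level of tumor 1, the widest gap within a pair among the 10 genes, and the UVB libraries were nearly equal. The log2 fold change was -0.68 (SE 0.22, adjusted p = 0.0912) for tumor over UVB.

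Xpo7 (chromosome 14, 70654246 to 70766628, minus strand), a nuclear transport receptor needed for enucleation of cultured mouse erythroblasts, was at 694 and 600.3 CPM in the tumor libraries, 946 and 902 CPM in the UVB libraries and 750.3 CPM in the control. Both tumor libraries were below the control and both UVB libraries above it. The difference between the spleens (log2 fold change -0.52, SE 0.12) narrowly missed the threshold, with an adjusted p of 0.0548 by limma and 0.0214 by DESeq2. Its exons share 0.205% of their bases with Npm2 on the same strand.

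Foxo3 (chromosome 10, 42181841 to 42276755, minus strand) encodes a transcription factor that drives antioxidant and autophagy genes. It was at 586 and 453 CPM in the tumor libraries, 637 and 648 CPM in the UVB libraries and 541 CPM in the control. The control lay between the tumor libraries, and the UVB libraries were highest. For tumor over UVB the log2 fold change was -0.32 (SE 0.16, adjusted p = 0.19).

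Tumor 2 was below tumor 1 in 8 of the 10 genes, all but Bnip3l and Ube2o, against 43.8% of the genes tested. UVB 2 was below UVB 1 in 5 of the 10, against 53.2% of the genes tested. Macrophage and B cell markers went the other way within the tumor pair, with higher sums in tumor 2. Per length, the mean over the 5 libraries ran from 11.0 CPM per kilobase of exon for Gabarapl2 through 18.1 for Map1lc3b, 22.4 for Atg4a, 38.8 for Ulk1, 39.0 for Ube2h and 41.0 for Xpo7 to 65.3 for Bnip3l, 75.2 for Trim58, 75.7 for Foxo3 and 136 for Ube2o. Neighbours such as Ulk1, Ube2h and Xpo7, or Trim58 and Foxo3, lay closer to each other than their libraries did. Lengths are the union of all annotated exons, 19005 bases for Xpo7 and 2192 for Trim58, and a union longer than the transcripts in use lowers such a value.

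Among 183 tested genes in 11 lists of the same pathways, which hold none of the 10, limma called 25 between tumor and UVB libraries, 11 higher and 14 lower, where 12.3% of all genes were called higher and 4.70% lower. It called 2 higher and 1 lower for tumor over control, where 1.20% of all genes were called higher and 2.59% lower. For UVB over control it called 0, with 7 at an unadjusted p under 0.05, 0 by edgeR and 1 by DESeq2. Without UVB 1 or without UVB 2 limma called 0 of the 183 in any comparison, with 20 and 25 at an unadjusted p under 0.05 between the spleens, where it called 73 without tumor 1 and 83 without tumor 2, in the fits that called 38% and 52.6% of all genes. The counts below are for tumor over UVB unless another comparison is named.

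Of 17 genes of the ULK1 complex and autophagy initiation, 4 fell (Ulk2, Atg14, Rb1cc1 and Wdr45) and 1 rose, Atg2b, a lipid transfer protein. Atg14, which directs the PI3 kinase complex to autophagy, was at 37.9 ± 2.65 CPM in tumor libraries and 70.6 ± 5.68 CPM in UVB libraries. Atg2b was at 243 ± 5.10 and 152 ± 5.09 CPM in tumor and UVB libraries. Of 13 ATG8 and conjugation genes limma called 0, with 4 at an unadjusted p under 0.05, and edgeR and DESeq2 called 0. Atg7, the activating enzyme of ATG8 conjugation, was at 57.3 ± 5.22 CPM in tumor libraries, 60.3 ± 5.36 CPM in UVB libraries and 63.7 CPM in the control.

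Of 14 tested cargo receptor and mitophagy genes, Calcoco1 fell, to 80.3 ± 8.70 CPM in tumor libraries, against 151 ± 13.7 CPM in UVB libraries. Phb2, a mitochondrial inner membrane protein, rose, to 164 ± 0.796 CPM against 102 ± 5.61 CPM. The receptor Sqstm1 was at 187 ± 10.2 CPM in tumor libraries, 206 ± 2.99 CPM in UVB libraries and 186 CPM in the control, and the mitophagy kinase gene Pink1 at 133 ± 32.0, 192 ± 11.4 and 179 CPM, without a call for either.

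Of 19 lysosome genes 4 fell (Npc1, Mcoln1, Ctsa and Hexa) and 0 rose, with a list median of -0.52, and DESeq2 called 9. Npc1, a cholesterol transporter, was at 79.0 ± 15.4 CPM in tumor libraries and 160.0 ± 2.02 CPM in UVB libraries. Mcoln1, a calcium channel, was at 46.9 ± 5.18 and 75.1 ± 3.97 CPM, and DESeq2 did not call it (adjusted p = 0.0521). Tfeb, the regulator of lysosome genes, was at 28.7 and 49.7 CPM in tumor 1 and 2, 82.9 and 82.4 CPM in UVB 1 and 2 and 67.5 CPM in the control (adjusted p = 0.0608 between the spleens). Macrophages are rich in lysosomes, and their summed markers, given above, were lower in both tumor libraries than in either UVB library. Their part in these values was not tested.

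Of 20 FoxO factors and target genes 4 fell (Ccng2, Cdkn1b, Sesn1 and Cited2) and 1 rose, Sod2, with a list median of -0.67, and DESeq2 called 11. Ccng2, which encodes the atypical cyclin G2, was at 56.8 ± 1.50 CPM in tumor libraries, 106 ± 5.38 CPM in UVB libraries and 130.3 CPM in the control. It was also the 1 listed gene that fell for tumor over control (log2 fold change -1.18, adjusted p = 0.03), although not once genes averaging under 5 CPM were left out (adjusted p = 0.0571). Cdkn1b, which encodes the cell cycle inhibitor p27, was at 186 ± 25.2 CPM in tumor and 313 ± 10.8 CPM in UVB libraries. Sod2, the mitochondrial superoxide dismutase, was at 132 ± 2.69 CPM in tumor and 81.8 ± 3.48 CPM in UVB libraries. The summed B cell markers, given above, were lower in both tumor libraries than in either UVB library. The part of B cells in the values of this list was not tested.

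The list of karyopherins related to Xpo7, which also holds Rcc1 and other genes of the Ran cycle, went the other way. Of 15 genes 6 rose (Xpo4, Xpo5, Xpot, Cse1l, Ipo7 and Rcc1), all 15 had a fold change above 0 and the list median was 0.48, against -0.52 for Xpo7 itself. Xpo4 was at 173 ± 4.72 CPM in tumor libraries, 78.8 ± 2.92 CPM in UVB libraries and 92.1 CPM in the control, and Xpo5, an exporter of microRNA precursors, at 168 ± 2.13, 90.8 ± 2.15 and 116 CPM. Xpot, the tRNA exporter, and Xpo4 were also called higher for tumor over control (adjusted p = 0.0431 for Xpot and 0.0385 for Xpo4), calls that edgeR did not make (0.0663 and 0.063). Xpo1, the main protein exporter, was at 408 ± 25.1, 325 ± 33.9 and 356 CPM in tumor, UVB and control libraries and did not pass (adjusted p = 0.114 between the spleens).

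Of 18 nuclear condensation and enucleation genes 2 rose and 0 fell. Hdac2, a histone deacetylase and 1 of those that rose, was at 139 ± 8.86 CPM in tumor libraries and 89.1 ± 6.39 CPM in UVB libraries. Hdac2 was not called by edgeR (adjusted p = 0.0543) or DESeq2 (0.0635). Of 8 dynein subunits, 22 other ubiquitin genes and 26 late erythroid genes, limma, edgeR and DESeq2 called 0, with 1, 6 and 2 genes at an unadjusted p under 0.05 by limma. The late erythroid list had a median of -0.12 for tumor over UVB and 0.15 for UVB over control. From the late erythroid list, the survival gene Bcl2l1 was at 300.3 ± 1.19 CPM in tumor libraries, 360 ± 28.4 CPM in UVB libraries and 304 CPM in the control. Fbxo7, a ubiquitin ligase subunit from the list of other ubiquitin genes, was at 179.7 ± 29.6, 194 ± 5.15 and 174 CPM. The erythroid regulators Gata1 and Klf1 were at 194 ± 28.8 and 203 ± 18.1 CPM in tumor libraries, 166 ± 3.65 and 186 ± 2.60 CPM in UVB libraries and 165 and 175 CPM in the control, and Tfrc, the antigen of the beads, at 759 ± 60.4, 748 ± 40.4 and 665 CPM. Of these 5 genes 0 were called by limma in any comparison. Whether a ceiling on reads per base narrowed the differences of Gata1, Klf1, Tfrc or the late erythroid list was not tested.

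**Figure D4:**
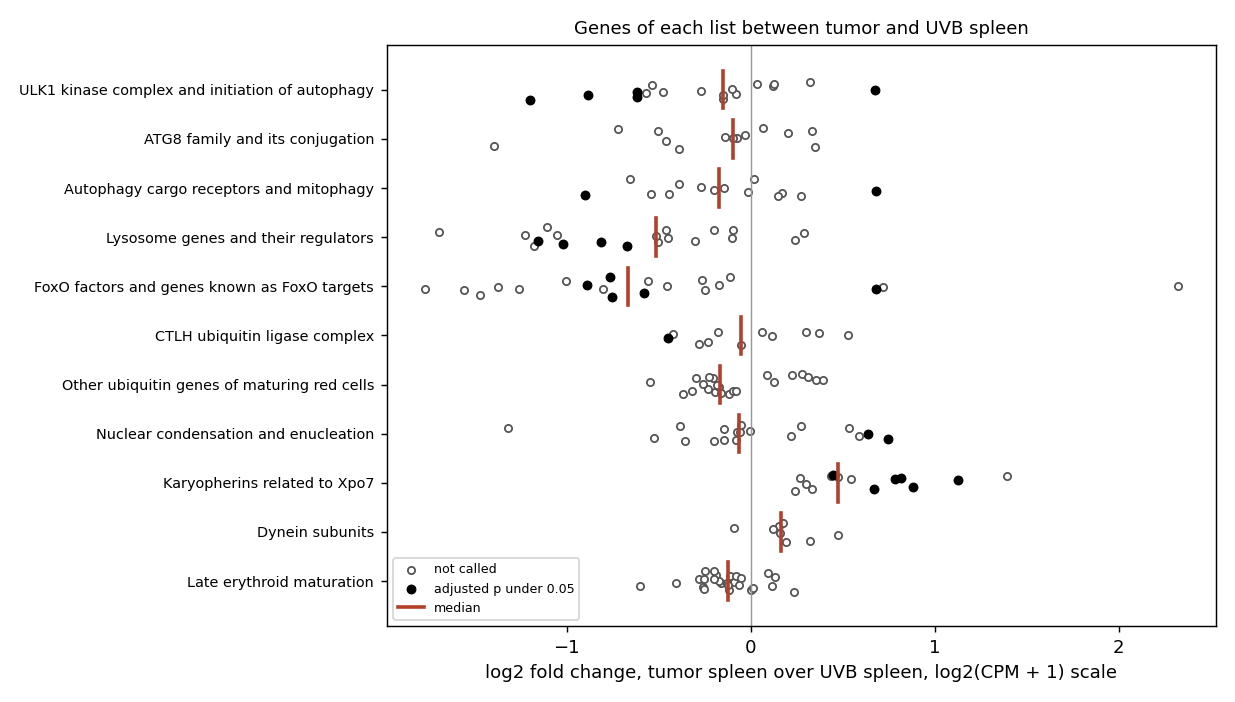
Log2 fold change, tumor over UVB spleen, of each tested gene in the 11 lists, with filled points for adjusted p under 0.05 and a red bar at each list's median (vertical scatter within a list carries no value). The FoxO list has the lowest median (-0.67) and the karyopherin list the highest (0.48).

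Genes whose pattern was most like the median profile of the 10, among 9770 other genes averaging 10 CPM or more, included Sdr39u1, Rit1, Suco and Tcp11l2. Likeness was the root mean square difference of log2(CPM + 1) centred over the 5 libraries, and was 0.0191, 0.0226, 0.0249 and 0.0351 for them. Among the 10 genes it was smallest for Xpo7 (0.0131) and Atg4a (0.0574) and largest for Ube2o (0.231), Gabarapl2 (0.225) and Bnip3l (0.205). Sdr39u1 was at 43.1 and 36.2 CPM in the tumor libraries, 58.5 and 54.9 CPM in the UVB libraries and 46.2 CPM in the control.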

How the data were processed

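RNA from 5 libraries was deposited by the authors as 2 tables of CPM values (counts per 1000000 reads in genes), with the control library identical in both. STAR, HTSeq and build mm10 are named in the submitters' processing notes, while the sources used here give no versions, annotation or strand setting. The deposited log2 columns are ratios of 1 spleen library to the control and served only to check the scale. The values show that the authors added 1 read to every gene. Divided by what 1 read is worth, 100% of the values were whole numbers to a relative tolerance of 1e-06, so the reads could be recovered. On them edgeR called 116, 192 and 2008 genes for UVB over control, tumor over control and tumor over UVB.

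The 15006 genes that averaged 1 CPM or more, all 10 members among them, were tested with limma 3.58.1 (trend) on log2(CPM + 1) in 1 fit of all libraries, two-sided. This leaves 2 residual degrees of freedom and takes the single control to vary as the spleen libraries do. Benjamini-Hochberg adjusted p under 0.05 made a call. Fold changes on this scale understate low genes. Alternatives were edgeR 4.0.16 and DESeq2 1.42.0 on recovered reads, TMM scaling, log2(CPM + 0.25), other filters, single libraries left out and a replicate block. Reads were also simulated with the same spread for every gene and with planted changes larger than those of the 10 genes. That run does not bear on the calls above, and its outcome is not reported here. Exon lengths and positions came from GENCODE M21 on GRCm38, which held 37607 of the 39179 identifiers. Wilson intervals cover counting error only, since the reads carry no molecular identifiers and may repeat a molecule.

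The members, lists and rules were chosen with earlier results of these data known. Genes named beside the members were a set panel of 18, up to 2 called genes in each direction per list and comparison, and the 5 of most like pattern. Other called genes are named as members of counted sets, and some genes that the rule names are not reported here.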

Additional observations from a re-analysis of the deposited data

Results flagged for a closer look

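For 2 of the 10 genes the difference from the control was itself different between tumor and UVB spleens by the limma test of tumor against UVB, in which the shared control cancels. That test called 17% of the 15006 genes tested, so 2 of 10 is near the background share. Ube2h differed by -0.71 on the log2 scale (adjusted p = 0.0284) and Atg4a by -0.65 (adjusted p = 0.0383). For both, the 2 tumor libraries lay below the control and the 2 UVB libraries above it. Over 13 other settings, adjusted p ran from 0.00133 to 0.295 for Ube2h and from 0.00299 to 0.314 for Atg4a, with the direction kept in each. Groups here have at most 2 libraries, so no library was assessed for standing apart from its group.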

How the results depend on the processing

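The 10 genes kept their direction for tumor over UVB and for UVB over control under every setting run. For tumor over control the sign of 3 genes changed, none of them called. Ube2o was at -0.00062 with edgeR, -0.014 with DESeq2 and -0.10 to 0.12 with a library left out, Bnip3l at -0.23 to 0.034 and Foxo3 at -0.26 to 0.12. With a library left out, 0 to 7 of the 10 genes were called for tumor over UVB and 0 to 4 for tumor over control. With no filter 4 were called for tumor over UVB, when 3347 of all 39179 genes were called. Over all genes, calls with a library left out ran from 0 to 7900 (tumor over UVB), 0 to 3147 (UVB over control) and 0 to 5445 (tumor over control), and fits without a spleen library rest on 1 residual degree of freedom. For UVB and for tumor over control, calls numbered 101 and 232 with log2(CPM + 0.25), 1813 and 2303 with no filter, 67 and 70 at a mean of at least 5 CPM, and 116 and 192 with edgeR. The cause was not tested. The median of the 10 genes for UVB over control was 0.30 after TMM scaling, 0.27 with edgeR, 0.26 with DESeq2 and 0.22 to 0.24 with a library left out. With the replicate block limma called 0 genes and 0 of the 10 in every comparison (1804, 2808 and 5511 genes at unadjusted p under 0.05 for UVB over control, tumor over control and tumor over UVB). Nothing in the labels pairs these numbers, and the differences between replicates 2 and 1 of the spleen groups had a weak correlation (r = -0.111 across genes). The crossed pairing, added after seeing the data, called 250, 400 and 2929 genes. Depth limits genes of few reads such as Bnip3 and Alox15.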

Other observations

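Alox15, the reticulocyte lipoxygenase that attacks mitochondrial membranes, varied widely between the UVB libraries. It was at 5.85 and 9.95 CPM in tumor 1 and 2, 2.18 and 22.5 CPM in UVB 1 and 2 and 1.57 CPM in the control, which rest on 32, 54, 10, 133 and 8 reads. No comparison of Alox15 passed (adjusted p = 0.443 to 0.999).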
